A study of Caenorhabditis elegans with 12 samples.

Results

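The genes *rnr-1*, *rnr-2*, *dut-1* and *tyms-1*, which encode enzymes of deoxynucleotide synthesis, were followed through dissected *C. elegans* germlines. They were chosen by name as classical E2F-class genes, with no threshold on measured values. Earlier results of these data were known when they were chosen. The members are 4 of the 17085 genes on the arrays. Each is read by 1 probe set, a group of short probes whose signal is given as a single log2 level. Transcripts were read on 12 Affymetrix arrays, 3 biological replicates for each of 4 genotypes: double mutants that carry both *lin-54(n3423)* and *mes-4(ok2326)*, single mutants with 1 of these alleles, and wild type (N2). The study set out to learn whether LIN-54 and MES-4 act against each other on germline transcripts, so each single mutant is set against wild type and the double mutant against each of the others. Hermaphrodites were grown at 20 °C and dissected 24 hr after the L4 stage, and each sample pooled 50 to 70 cut germlines that ran from the mitotic tip to late pachytene. Mutant animals were the homozygous offspring of heterozygous mothers (M+Z-), so they still inherited maternal product. The *n3423* allele is a large deletion treated as a null, and *ok2326* removes sequence of the MES-4 catalytic (SET) domain and leaves a truncated transcript. For M+Z- adults with *n3423* the paper reports no detectable LIN-54 transcript or protein. In M+Z- germlines with *ok2326*, immunostaining found neither MES-4 protein nor its histone mark H3K36me2, and the paper calls this allele likely a null.

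A cell that copies its genome needs a supply of all deoxynucleotides. Ribonucleotide reductase, built of a large subunit (RNR-1) and a small subunit (RNR-2), makes deoxynucleotides from ribonucleotides and is the committed step. DUT-1, the dUTPase, turns dUTP into dUMP and so keeps uracil out of DNA, and TYMS-1, thymidylate synthase, methylates dUMP to dTMP. In animals these genes are best known as targets of E2F transcription factors, which act at the entry into S phase. LIN-54 is the DNA-binding subunit of DRM, a complex that joins an E2F and its DP partner, an Rb-like protein and the MuvB proteins, and it can repress or activate genes. MES-4 is a histone methyltransferase that places the H3K36 methyl mark on genes expressed in germ cells. In the adult gonad the mitotic zone lies at the distal tip, next to cells in the last S phase before meiosis.

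The arrays had similar distributions, with medians of 5.81 to 5.93 and correlations of 0.989 to 0.996 within a genotype. The level of *lin-54* itself was 6.33 to 6.81 in double mutants and 6.32 to 7.76 in *lin-54* mutants, against 10.69 to 10.88 in *mes-4* mutants and 10.78 to 10.86 in wild type. The highest of the arrays that carry the deletion was *lin-54* replicate 2. The *mes-4* transcript was only partly lower: one of its 2 probe sets read 9.27 to 9.65 in double mutants and 9.01 to 9.22 in *mes-4* mutants, against 9.70 to 9.77 in *lin-54* mutants and 9.81 to 9.84 in wild type. The other read 9.92 to 10.35 in double mutants and 9.59 to 9.82 in *mes-4* mutants, against 10.26 to 10.67 in *lin-54* mutants and 10.39 to 10.55 in wild type. On it the double-mutant and *lin-54* arrays overlapped. Of the tissue markers, 12 germline genes had a median level of 10.31 to 11.10 in double mutants, 11.04 to 11.10 in *lin-54* mutants, 11.09 to 11.29 in *mes-4* mutants and 10.80 to 11.38 in wild type. In double mutants relative to *mes-4*, 9 of these 12 had a difference below 0, and 1, *nos-2*, was called (−1.12, q = 0.0189), against 5.36% of all genes called lower. Also 9 of 12 were below 0 in *lin-54* and in double mutants, each compared with wild type. The number was 7 in *mes-4* compared with wild type and 6 in double mutants relative to *lin-54*. Intestinal signal was present: *vit-5*, a yolk protein gene, averaged 9.96 in double mutants, 11.05 in *lin-54* mutants, 11.71 in *mes-4* mutants and 11.34 in wild type. The median level of 22 genes for major sperm protein (MSP), which mark sperm development, was 7.77 to 10.23 in double mutants and 7.20 to 10.17 in *lin-54* mutants, against 6.31 to 6.67 in *mes-4* mutants and 6.36 to 6.55 in wild type. The arrays that lack LIN-54 therefore stand apart in this list, and the counts of called genes for the loss of LIN-54 are also given without the *lin-54* and the double-mutant array with the highest sperm levels (replicate 1 of each).

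Mean transcript levels of all 4 genes were lower in germlines that lacked LIN-54, with and without MES-4. In double mutants relative to *mes-4*, *rnr-1*, *rnr-2*, *dut-1* and *tyms-1* all fell (limma, q at or below 0.05), by 26.0% to 52.2% of the *mes-4* level. Over all genes, a fall was called for 5.36% and a rise for 2.41%. Of the genes in the top 10% by mean level, where these 4 lie, 8.07% were called lower. All 3 double-mutant arrays were below all 3 *mes-4* arrays for each of the 4 genes, as were those of 10.8% of all genes. The number called depended on single arrays: it was 0 without double-mutant replicate 1 (q of 0.0545 to 0.137), 1 without *mes-4* replicate 3, and 2 without *mes-4* replicate 1 or replicate 2. It was 1 without the 2 arrays highest in sperm genes and 2 when only the arrays of these genotypes were fitted, although every difference kept its sign.

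In *lin-54* mutants compared with wild type, 2 of the 4 genes, *rnr-2* and *dut-1*, were called lower, against 3.47% of all genes (2.58% were called higher) and 7.37% of the genes in the top 10% by level. The *lin-54* arrays did not overlap the wild-type arrays for any of the 4 genes, as was so, in this direction, for 11.1% of all genes. The count was 0 without wild-type replicate 1 or 2 or *lin-54* replicate 2 or 3, and 3 without double-mutant replicate 2, which enters only through the estimate of the spread. With the replicate number added to the fit it was also 3, as *tyms-1* was then called (q = 0.0416). Without the 2 arrays highest in sperm genes it was again 2, with *rnr-2* at −0.55 (q = 0.0114) and *dut-1* at −0.51 (q = 0.038). This comparison and that of the double mutant with *mes-4* share no array.

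**Figure D1:**
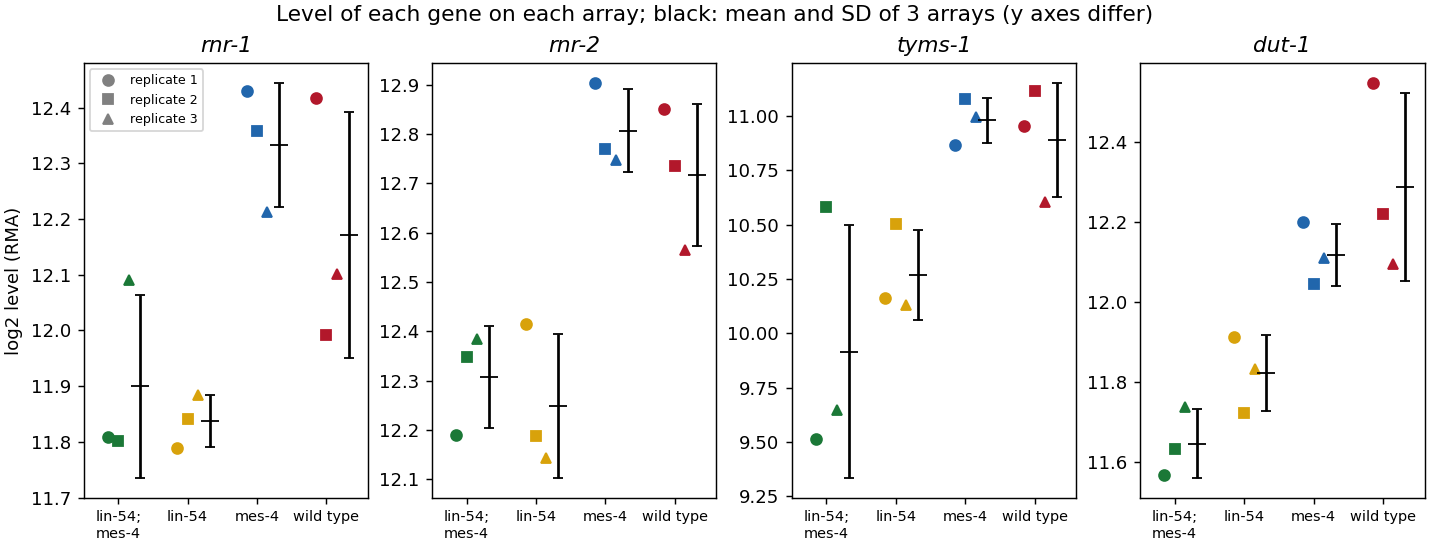
Log2 level (y, own scale for each gene) of *rnr-1*, *rnr-2*, *tyms-1* and *dut-1* on each of the 12 arrays, by genotype (x), with replicates 1, 2 and 3 as circle, square and triangle and the mean and SD of 3 arrays in black. The double-mutant and *lin-54* arrays lie below the *mes-4* and wild-type arrays for *rnr-2*, *tyms-1* and *dut-1*, and *rnr-1* overlaps at 1 double-mutant array (12.09) and 1 wild-type array (11.99).

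The large subunit of ribonucleotide reductase, *rnr-1*, was the member with the smallest difference. Its log2 level was 11.81, 11.80 and 12.09 in double mutants and 11.79, 11.84 and 11.88 in *lin-54* mutants. It was 12.43, 12.36 and 12.21 in *mes-4* mutants and 12.42, 11.99 and 12.10 in wild type. Double-mutant replicate 3 reached the range of wild type, and wild-type replicate 1 stood above the other two. The means were 11.90 ± 0.16 in double mutants, 11.84 ± 0.05 in *lin-54* mutants, 12.33 ± 0.11 in *mes-4* mutants and 12.17 ± 0.22 in wild type (SD, n = 3 arrays each). In the double mutant the log2 difference of *rnr-1* from *mes-4* was −0.43 (SE 0.12, 95% interval −0.69 to −0.18, q = 0.0396), a level 26.0% lower. That call was lost in 11 of 21 alternatives, among them the Benjamini-Hochberg adjustment (0.0581). In *lin-54* compared with wild type the difference was −0.33 (interval −0.59 to −0.08) and did not pass (q = 0.0906).

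The small subunit, *rnr-2*, had log2 levels of 12.19, 12.35 and 12.39 in double mutants and 12.42, 12.19 and 12.14 in *lin-54* mutants. In *mes-4* mutants it read 12.90, 12.77 and 12.75, and in wild type 12.85, 12.74 and 12.57. All 6 arrays that lacked LIN-54 were below all 6 that had it, with means of 12.31 ± 0.10 in double mutants, 12.25 ± 0.15 in *lin-54* mutants, 12.81 ± 0.08 in *mes-4* mutants and 12.72 ± 0.14 in wild type (SD, n = 3 arrays each). The log2 difference was −0.50 in double mutants relative to *mes-4* (SE 0.10, q = 0.0117), a fall of 29.3%, and −0.47 in *lin-54* compared with wild type (SE 0.10, q = 0.0210), a fall of 27.7%. The 95% interval of *rnr-2* in double mutants relative to *mes-4*, −0.72 to −0.28, overlapped that of *rnr-1*.

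The dUTPase gene *dut-1* had log2 levels of 11.57, 11.63 and 11.74 in double mutants and 11.91, 11.72 and 11.83 in *lin-54* mutants. In *mes-4* mutants they were 12.20, 12.04 and 12.11, and in wild type 12.55, 12.22 and 12.09. Again the 6 arrays without LIN-54 lay below the other 6, and wild-type replicate 1 was the highest of all. The means were 11.64 ± 0.09 in double mutants, 11.82 ± 0.09 in *lin-54* mutants, 12.12 ± 0.08 in *mes-4* mutants and 12.29 ± 0.23 in wild type (SD, n = 3 arrays each). *dut-1* fell by 28.0% in double mutants relative to *mes-4* (log2 difference −0.47, SE 0.11, q = 0.0220) and by 27.6% in *lin-54* compared with wild type (−0.47, SE 0.11, q = 0.0292).

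The thymidylate synthase gene *tyms-1* had the largest differences and the widest spread. Its log2 level was 9.52, 10.58 and 9.65 in double mutants and 10.16, 10.51 and 10.13 in *lin-54* mutants. It was 10.87, 11.08 and 10.99 in *mes-4* mutants and 10.96, 11.11 and 10.60 in wild type. The arrays without LIN-54 did not overlap the others, but the gap was narrow, since double-mutant replicate 2 (10.58) was just below wild-type replicate 3 (10.60). The means were 9.92 ± 0.58 in double mutants, 10.27 ± 0.21 in *lin-54* mutants, 10.98 ± 0.11 in *mes-4* mutants and 10.89 ± 0.26 in wild type (SD, n = 3 arrays each). Compared with *mes-4*, *tyms-1* in the double mutant fell by 52.2% (log2 difference −1.06, SE 0.24, interval −1.59 to −0.54, q = 0.0185), and 1.23% of all genes had a lower difference. In *lin-54* compared with wild type its difference of −0.62 (interval −1.15 to −0.10), a level 35.1% lower, did not pass (q = 0.106). It passed in 3 of 22 alternatives, among them the fit with the replicate number added (q = 0.0416). Replicate 2 was the highest array of *tyms-1* in each of the 4 genotypes, which was not so for any of the other 3 genes.

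In wild type the probe set of *tyms-1* read higher than that of 94.4% of genes, *rnr-1* higher than 98.7%, *dut-1* higher than 98.8% and *rnr-2* higher than 99.2%. Probe sets differ in how well they bind, so these ranks describe signal on the array and the 4 genes are not ordered by abundance. In dissected tissue a lower level can mean less transcript per cell or fewer cells that hold it, and these cannot be told apart here. None of the 5 genes that mark the distal stem cell zone (*glp-1*, *fbf-1*, *fbf-2*, *sygl-1*, *lst-1*) was called in any of the 5 pairwise comparisons. Of all genes, 1.14% to 5.36% were called lower and 1.79% to 4.04% higher in these, so no call among 5 genes says little. In double mutants relative to wild type, 4 of the 5 were below 0, with *sygl-1* at −0.32 and *lst-1* at −0.25, and *glp-1* was at 0.06. Their median level was 9.56 to 9.87 in double mutants, 9.84 to 10.09 in *lin-54* mutants, 9.56 to 9.85 in *mes-4* mutants and 9.72 to 9.93 in wild type. Whether the size of this zone changed was not tested.

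Loss of MES-4 gave no called change of the 4 genes. In *mes-4* compared with wild type the arrays overlapped for each gene. None was called (limma; 0 at an unadjusted p under 0.05), against 1.95% of all genes called lower and 4.04% called higher. The log2 differences were 0.16 for *rnr-1* (95% interval −0.10 to 0.42), 0.09 for *rnr-2* (−0.13 to 0.31), −0.17 for *dut-1* (−0.41 to 0.07) and 0.09 for *tyms-1* (−0.43 to 0.61). With 3 arrays a genotype, the data leave room for a change of any size within these intervals. Over both backgrounds, the 6 arrays without MES-4 set against the 6 with it, a contrast added after the data were seen, again gave no call for the 4 genes, with or without the 2 arrays highest in sperm genes (limma, all 12 arrays; 1 at an unadjusted p under 0.05, *dut-1* at −0.17, q = 0.135), against 5.48% of all genes called lower and 6.27% higher.

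Between the double mutant and *lin-54*, which both lack LIN-54, none of the 4 genes was called (limma; 0 at an unadjusted p under 0.05), against 1.14% of all genes called lower and 1.79% called higher. The arrays overlapped for each gene. The log2 differences were 0.06 for *rnr-1* (95% interval −0.20 to 0.32), 0.06 for *rnr-2* (−0.16 to 0.28), −0.18 for *dut-1* (−0.42 to 0.07) and −0.35 for *tyms-1* (−0.87 to 0.17). Without double-mutant replicate 2, its highest array of *tyms-1*, that gene was called lower (−0.68, q = 0.0458). Without the 2 arrays highest in sperm genes the count was 0.

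Compared directly with wild type, double mutants had 3 of the 4 genes called lower, against 2.85% of all genes (2.14% were called higher) and 7.43% of those in the top 10% by level. *dut-1* had a log2 difference of −0.64 (SE 0.11, q = 0.00627). *tyms-1* fell by 49.1% (−0.97, SE 0.24, q = 0.0376) and *rnr-2* by 24.7% (−0.41, SE 0.10, q = 0.0396). The difference of *rnr-1*, −0.27 (interval −0.53 to −0.01), was not called (q = 0.256), and its arrays overlapped. The arrays of the other 3 genes did not, as was so for 11.8% of all genes. The count was 1 without wild-type replicate 1 or 2, *mes-4* replicate 2, double-mutant replicate 1 or 3, or the 2 arrays highest in sperm genes, and also when only these genotypes were fitted. *dut-1* kept q below the threshold in each of 22 alternatives (q of 0.00248 to 0.0291).

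**Figure D2:**
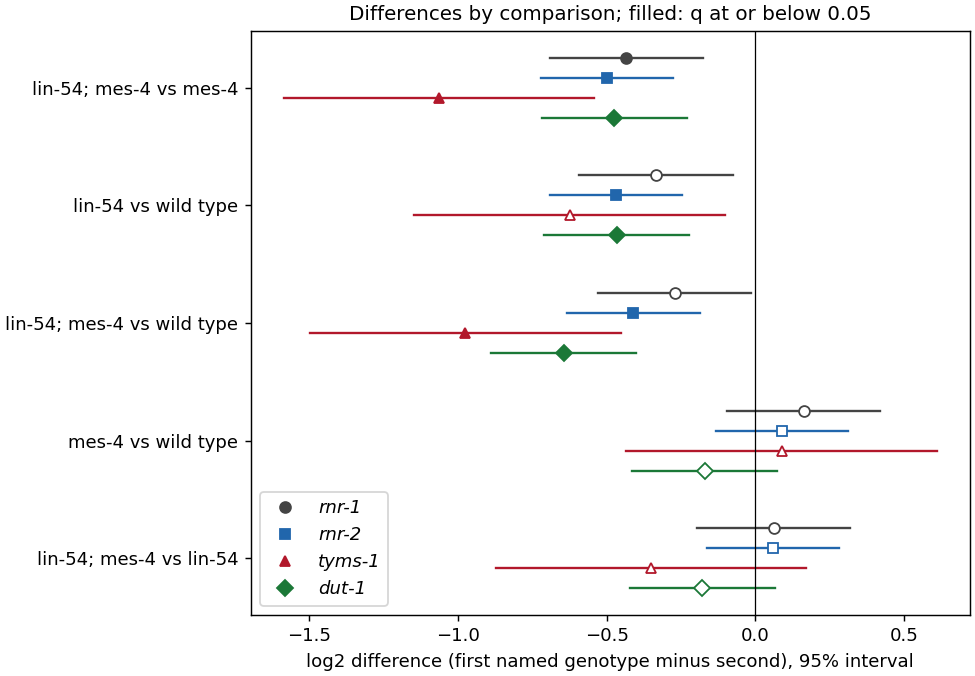
Log2 difference (x, first-named genotype minus second) with its 95% interval for the 4 genes in 5 comparisons (y), filled where q was at or below 0.05. In the comparisons in which the first genotype lacks LIN-54 and the second has it, all differences are below 0, from −0.27 to −1.06, and the intervals of *mes-4* compared with wild type and of double mutants relative to *lin-54* all cross 0.

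Whether the effect of losing LIN-54 differed with and without MES-4 was tested as an interaction. None of the 4 genes was called, and 0.0117% of all genes were called lower and 0.0234% higher. The difference between both effects was −0.44 for *tyms-1* (SE 0.34, interval −1.18 to 0.30), −0.10 for *rnr-1*, −0.03 for *rnr-2* and −0.01 for *dut-1*.

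As the effects in both backgrounds were not told apart, the 6 arrays without LIN-54 were also set against the 6 with it, a contrast chosen after the data were seen and made of the same arrays. All 4 genes were called lower, against 10.9% of all genes (11.7% were called higher) and 21% of those in the top 10% by level. *tyms-1* was lower by 44.3% (log2 difference −0.84, SE 0.17, q = 0.0039), *rnr-2* by 28.5% (−0.48, SE 0.07, q = 0.000745), *dut-1* by 27.8% (−0.47, SE 0.08, q = 0.00148) and *rnr-1* by 23.3% (−0.38, SE 0.08, q = 0.00586). The 4 genes stayed called with any 1 array left out and without the 2 arrays highest in sperm genes. For 3 of the 4 genes the 6 arrays did not overlap the other 6, as for 2.93% of all genes.

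**Figure D3:**
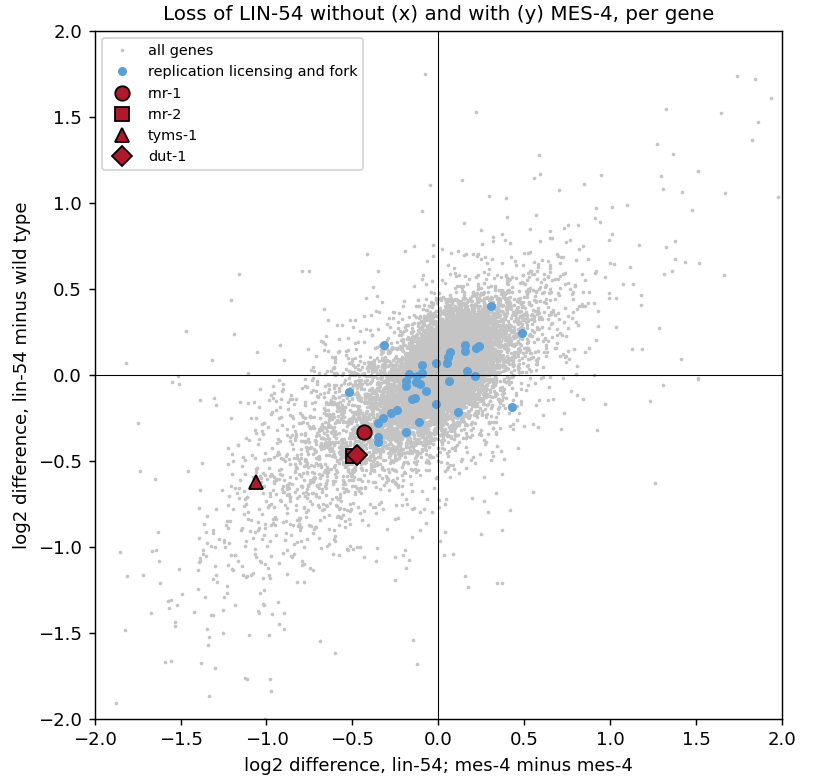
Log2 difference of the double mutant minus *mes-4* (x) and of *lin-54* minus wild type (y) for each gene (grey, with 49 genes beyond ±2 not drawn), with the 37 replication genes in blue and the 4 deoxynucleotide genes in red. The axes share no array, and the 4 genes lie at −0.43 to −1.06 on x and −0.33 to −0.62 on y.

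Of 9 other genes that make or trim deoxynucleotides, 2 were lower on the 6 arrays without LIN-54 than on the 6 with it and none was higher, against the 10.9% and 11.7% of all genes. Their median log2 difference was 0.05, the same as that of all genes, compared with −0.48 for the 4 members. *mel-32*, a serine hydroxymethyltransferase that supplies the folate carbon used by thymidylate synthase, fell by 0.41 on the log2 scale (q = 0.00685) and was also called in *lin-54* compared with wild type (−0.49, q = 0.0399). *C29F7.3*, a predicted UMP/CMP kinase, was also lower (−0.35, q = 0.046). The thymidylate kinase gene *dtmk-1* (0.06), which acts right after TYMS-1, the guanylate kinase gene *guk-1* (0.08), the nucleoside diphosphate kinase gene *ndk-1* (0.05) and the SAMHD1-like *sahd-1* (−0.02) were not called.

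The genes of the RNR reductants, the thioredoxin and glutaredoxin systems that supply electrons to ribonucleotide reductase, had 4 of 10 genes higher without LIN-54 and none lower (median 0.11), led by *trx-2* (0.36, q = 0.0014), *trxr-2* (0.53, q = 0.00418), *trxr-1* (1.18, q = 0.00685) and *glrx-10* (0.35, q = 0.0178). In this contrast 11.7% of all genes were called higher and 10.9% lower, which is also the share for the lists below. *trx-2*, a mitochondrial thioredoxin, was also higher in double mutants relative to *mes-4* (0.43, q = 0.01). Of 5 genes of pyrimidine and CTP synthesis, 2 were lower: *pyr-1*, which encodes the enzyme that opens the pyrimidine pathway (−0.55, q = 0.00337), and *umps-1*, which closes it at UMP (−0.33, q = 0.033). *pyr-1* was called in double mutants relative to *mes-4* (−0.60, q = 0.0292). None of 10 genes of purine synthesis and folate was called in this contrast, and their median was 0.07.

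DNA replication genes are also known as E2F targets in animals. Of 37 genes of origin licensing and the replication fork, 8 were lower and 3 higher without LIN-54, with a median of −0.06. Of all genes, 10.9% were called lower and 11.7% higher, and of those in the top 10% by level 21% were called lower. In this contrast, chosen after the data were seen, none of the 37 genes had a difference below that of *rnr-1*. That order did not hold in single comparisons. *mcm-4* had a difference below that of *rnr-1* in double mutants relative to *mes-4* (−0.52, against −0.43). *top-2* (−0.39) and *mcm-2* (−0.36) had differences below that of *rnr-1* (−0.33) in *lin-54* compared with wild type. In double mutants relative to wild type, *pri-2* (−0.94), *orc-4* (−0.55), *psf-2* (−0.51) and *top-2* (−0.46) were below *rnr-1* (−0.27). So were *mcm-2* (−0.44), *mcm-4* (−0.36), *psf-1* (−0.36) and *mcm-3* (−0.32). There *rnr-2* had −0.41, *dut-1* −0.64 and *tyms-1* −0.97. The genes that fell included 5 subunits of the MCM helicase, with *mcm-7* (−0.29, q = 0.00398), *mcm-2* (−0.35, q = 0.00806) and *mcm-6* (−0.32, q = 0.0104) the most significant. *mcm-10* was higher (0.35, q = 0.00553), as were *rfc-2* (0.23) and *orc-5* (0.15). In the 2 comparisons of genotypes that differ only in LIN-54, 3 of them were called: *mcm-7* (−0.31, q = 0.0361) and *mcm-4* (−0.52, q = 0.0401) were lower in double mutants relative to *mes-4*, and *mcm-10* was higher in *lin-54* compared with wild type (0.40, q = 0.0427).

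Of 11 genes for G1/S cyclins, kinases and their regulators, 3 were lower and 1 higher without LIN-54, with a median of −0.13, against 10.9% and 11.7% of all genes. The phosphatase gene *cdc-25.2*, which activates cyclin-dependent kinases, fell most (−0.86, q = 0.000725), and was called in *lin-54* compared with wild type (−0.94, q = 0.0127), in double mutants relative to *mes-4* (−0.78, q = 0.0203) and in double mutants relative to wild type (−0.51, q = 0.0396). *cdk-4* (−0.53, q = 0.0174) and the cyclin E gene *cye-1* (−0.40, q = 0.0209) were lower, and the cyclin A gene *cya-1* was higher (0.23, q = 0.0224). Among 9 genes for E2F and DRM subunits, in the same contrast, only *lin-54* (−4.09, q = 7.22e-07) and *lin-37* (−0.29, q = 0.0155) were called, and neither *efl-1*, *dpl-1* nor *lin-35* was. These lists were written with results of these data known, so their counts describe them and test nothing.

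**Figure D4:**
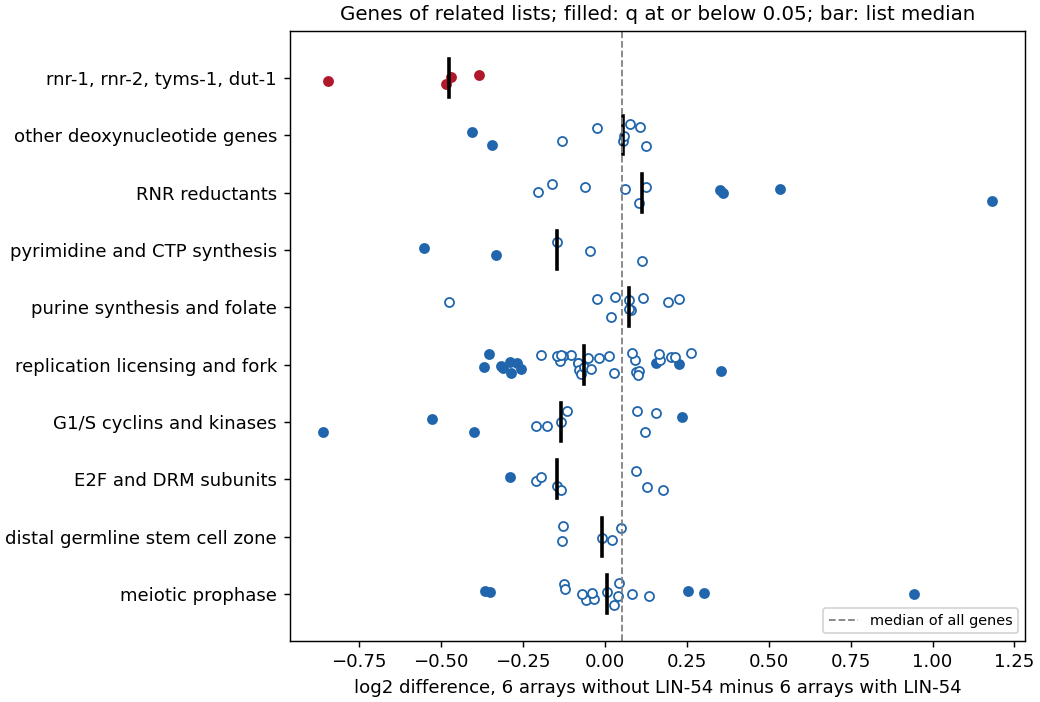
Log2 difference of each gene (x, 6 arrays without LIN-54 minus 6 with it) in the 4 members and 9 related lists (y), filled where q was at or below 0.05, with *lin-54* itself not drawn, with a bar at each list's median and a dashed line at the median of all genes (0.05). The 4 members lie at −0.38 to −0.84, and the replication genes have a median of −0.06 with called genes on both sides of 0.

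Some markers of other cells moved with the loss of LIN-54. All 22 MSP genes were called higher without LIN-54, against 11.7% of all genes. In double mutants relative to *mes-4* 19 were called higher, against 2.41% of all genes. The count was 10 in *lin-54* compared with wild type (2.58% of all genes) and 0 in *mes-4* compared with wild type (4.04%). All 22 were read by probe sets of a type that can also bind other genes, so they may not be 22 separate readings. Their summed linear signal was 5833 to 33689 in double mutants and 3564 to 29168 in *lin-54* mutants, against 1800 to 2328 in *mes-4* mutants and 1997 to 2235 in wild type. In both genotypes that lack LIN-54, replicate 2 had the lowest median of these genes and the highest level of *tyms-1*. For *rnr-1*, *rnr-2* and *dut-1* replicate 2 was never the highest array of these genotypes. In *mes-4* mutants and wild type, replicate 2 was also the highest array of *tyms-1*, but there it had the highest MSP median (6.67 and 6.55). Without replicate 1 of both genotypes that lack LIN-54, the difference of *tyms-1* in double mutants relative to *mes-4* was −0.86 (q = 0.0758). That of *rnr-1* was −0.39 (q = 0.138) and that of *dut-1* −0.43 (q = 0.0808), and *rnr-2* stayed called. The part of sperm transcripts in these differences was not tested.

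Of 9 genes listed for the somatic gonad, mainly for the sheath cells that wrap the germline, 3 were lower without LIN-54: *tbh-1* (−2.99, q = 2.38e-05), *inx-8* (−2.01, q = 0.00014) and *ced-1* (−0.44, q = 0.00865). The uncalled genes of this list lay between −0.07 (*acy-4*) and 0.19 (*lag-2*), and the list median was −0.07. The summed signal of the list was 1221 to 1360 in double mutants and 841 to 1109 in *lin-54* mutants. It was 2450 to 2832 in *mes-4* mutants and 2237 to 3361 in wild type. This sum is weighted to *inx-8* and *tbh-1*, which averaged 10.03 and 9.80 in wild type, against at most 8.33 (*ced-1*) for the rest. In 12 general germline genes 5 were lower and 1 higher, with a median of −0.19, and *nos-2*, which encodes a Nanos-like RNA regulator, had the smallest p (−0.93, q = 0.00302). Of 17 genes of meiotic prophase, 2 were lower and 3 higher with a median of 0.01, among them *syp-1* of the synaptonemal complex (0.94, q = 0.000104). Genes of other somatic tissues were called in the same contrast, all of them higher without LIN-54. Of all genes, 11.7% were called higher and 10.9% lower in it. They were 1 of 9 intestine genes (*vit-4*, 0.26, q = 0.0482), 1 of 9 muscle genes (*unc-15*, 0.70, q = 0.0375), 2 of 8 hypodermis genes (*sqt-3*, 0.56, q = 0.0306, and *rol-6*, 0.26, q = 0.0408) and 2 of 10 neuron genes (*flp-1*, 0.22, q = 0.0155, and *rab-3*, 0.18, q = 0.0198). The call of *vit-4* rests on 1 of its probe sets. Their mean level went the other way: 8.58 in double mutants and 9.37 in *lin-54* mutants, against 9.79 in *mes-4* mutants and 9.61 in wild type. The yolk genes *vit-2* (−0.78), *vit-5* (−1.01) and *vit-6* (−1.03) were also below 0 and were not called. The medians were 0.04 for intestine, 0.29 for muscle, where all 9 genes were above 0, 0.19 for hypodermis and 0.06 for neurons, against 0.05 for all genes. In the 5 pairwise comparisons *flp-1* alone of these lists was called. The summed signal of the intestine genes varied from 2075 to 2780 in double mutants, 2003 to 10030 in *lin-54* mutants, 2418 to 20321 in *mes-4* mutants and 3409 to 8111 in wild type. The part of these cells in the differences of the 4 genes was not tested.

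**Figure D5:**
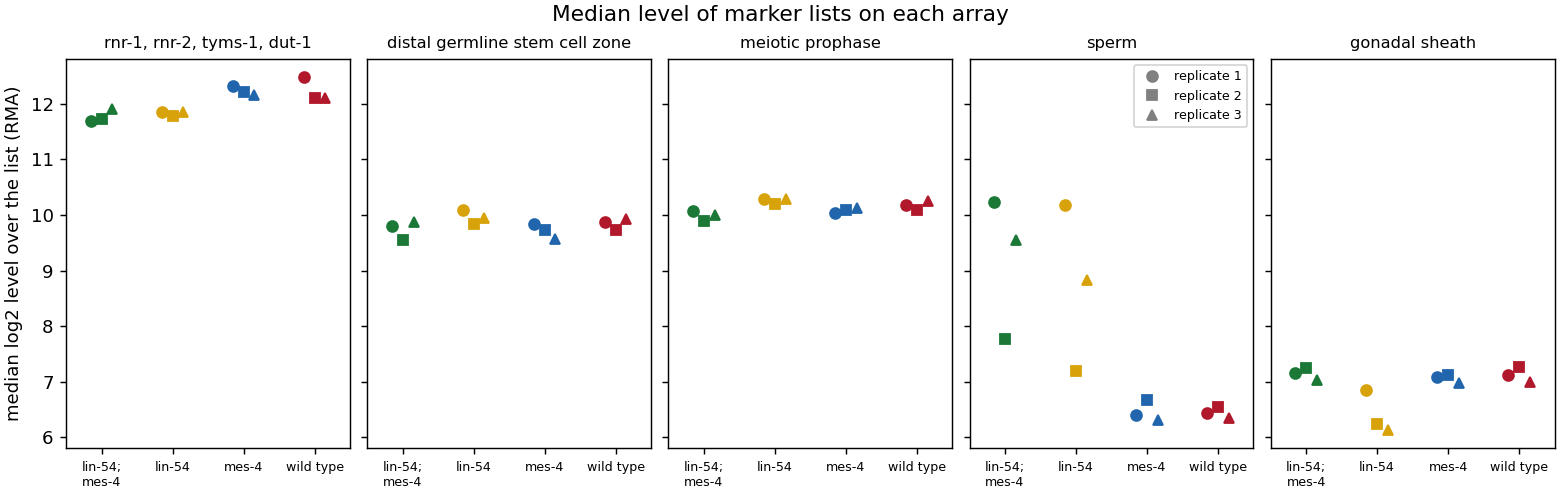
Median log2 level (y) over the 4 members and over 4 marker lists on each array, by genotype (x), with replicates 1, 2 and 3 as circle, square and triangle. The sperm medians spread from 7.20 to 10.23 without LIN-54 and stay at 6.31 to 6.67 with it, whereas the medians of the distal zone lie at 9.56 to 10.09 over all 4 genotypes.

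Genes with the most similar pattern were ranked by Pearson's r over the 12 arrays among 8541 genes above the median level, as a description only, since the arrays fall into those with and without LIN-54. *tyms-1* was most like *egg-2* (r = 0.95), *pos-1* (0.92) and *cpg-3* (0.91), which encode an egg surface receptor, an RNA-binding protein of oocytes and early embryos, and a proteoglycan of the eggshell. *egg-2* read 11.27 to 11.93 on the arrays without LIN-54 and 12.15 to 12.47 on those with it. *rnr-1* was most like *mics-1* (0.94), *cee-1* (0.93) and *prp-39* (0.93), and *dut-1* was most like *atfs-1* (0.94), *pak-2* (0.93) and *dvc-1* (0.93). *rnr-2* was most like *gex-2* (0.98), *gln-6* (0.97) and *Y38F1A.2* (0.96), and *gln-6*, a glutamine synthetase gene, read 11.91 to 12.31 without LIN-54 and 12.67 to 12.94 with it. No gene stood among the first 3 of more than 1 member.

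*tyms-1* and *dut-1* lie on chromosome I and *rnr-1* and *rnr-2* on chromosome III. The nearest protein-coding gene on each side of a member was not called in double mutants relative to *mes-4* or in *lin-54* compared with wild type, for the 7 of 8 neighbours with a value. The neighbour with the largest difference was *K07A1.13*, beside *dut-1* (−0.61, q = 0.236, in double mutants relative to *mes-4*, and −0.90, q = 0.0889, in *lin-54* compared with wild type). The spans of *C03C10.2* and *K07A1.3* overlap *rnr-2* and *dut-1*, and their wild-type levels were 5.15 and 6.15. The probe sets of *rnr-1* and *rnr-2* are of a type that can be shared between transcripts or genes, so their values may hold signal of more than 1 transcript.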

How the data were processed

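RNA from each germline sample was linearly amplified once, labeled with biotin and hybridized to Affymetrix GeneChip *C. elegans* arrays. The authors ran quantile normalization with affy in R and summarized probes by the robust multichip average (RMA), and deposited 1 log2 value per probe set and array. Versions and a genome build were not given in the sources used here. Deposited log2 values (3.05 to 14.6) were used without further normalization. The array has 22625 probe sets, 77 of them controls. Platform annotation tied 20766 of the others to 1 gene, 887 to several and 895 to none. Of the 20766, 20701 matched the reference gene table, for 17085 genes. Arrays carry no count depth, and the number of arrays limits the precision.

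The linear model held a mean for each genotype and all 12 arrays (limma 3.58.1, R 4.3.3, lmFit and eBayes). Storey's q was calculated across the 22548 probe sets that are not controls (lambda 0 to 0.9 in steps of 0.05, spline with 3 degrees of freedom). The probe set with the smallest p stood for a gene, which was called at q at or below 0.05, after the study's methods. Intervals are 95% intervals of the moderated test. "Percent lower" converts the log2 difference to a linear ratio. RMA compresses ratios of low signals. The fit was tested on simulated data.

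The 4 genes, all lists and all comparisons were chosen with earlier results of these data known. Named genes were the 4 members, *lin-54* and *mes-4*, up to 4 called genes per list and comparison by p, and the 3 genes most correlated with each member. Genes named beyond this (the uncalled genes of deoxynucleotide synthesis, *mcm-2*, *mcm-3*, *pri-2*, *top-2*, *rfc-2*, *orc-5*, *vit-2*, *vit-5*, *vit-6* and the neighbours) were chosen after their values were seen. Gene names and neighbours came from a RefSeq gene table. Promoter and protein sequences were not analysed here. Alternatives changed the adjustment, the set of genes ranked, the arrays fitted, the variance trend, the probe sets, the centring and a replicate block, and left out each array in turn. The contrasts of 6 arrays and the removal of the 2 arrays highest in sperm genes were added after seeing the data.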

Additional observations from a re-analysis of the deposited data

How the results depend on the processing

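Over 676 alternatives to single-gene results of the 4 genes, 608 kept direction and side of the threshold, 49 lost a call, 4 gained one and 15 changed sign. The number of the 4 genes called in *lin-54* compared with wild type (2) was 1 without shared probe sets and 0 to 3 with 1 array left out. In double mutants relative to wild type (3) it was 1 with only these genotypes fitted, 1 without the 2 arrays highest in sperm genes and 1 to 3 with 1 array left out. In double mutants relative to *mes-4* (4) it was 2 with only these genotypes fitted, 2 without shared probe sets, 1 without the 2 sperm-high arrays and 0 to 4 with 1 array left out. In double mutants relative to *lin-54* (0) it was 0 to 1, and over the 6 arrays without LIN-54 (4) it was 2 without shared probe sets, where *rnr-1* and *rnr-2* are not tested. Signs changed only in values that were not called. *tyms-1* in *mes-4* compared with wild type was −0.055 without wild-type replicate 3 (−0.055 to 0.20 with 1 array left out), and *rnr-1* in double mutants relative to *lin-54* was −0.033 without double-mutant replicate 3. The interactions of *rnr-2* and *dut-1* were 0.010 and 0.033 after centring on the autosomal median and 0.11 and 0.076 without the 2 sperm-high arrays, and ran from −0.10 to 0.053 and −0.14 to 0.089 with 1 array left out. The causes were not tested.

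With 1 array left out, genes called over the whole array ranged from 226 to 1312 in *lin-54* compared with wild type (1034), 650 to 1530 in double mutants relative to *mes-4* (1326), 411 to 1014 in double mutants relative to wild type (853), 455 to 1141 in *mes-4* compared with wild type (1023) and 254 to 655 in double mutants relative to *lin-54* (500). Same-numbered arrays correlated at −0.067 to 0.43 in their deviations, and 11 of 12 arrays correlated best with one of their own number. The paper states that the genotypes were handled in parallel, but no label says that a number marks a shared batch. The numbers were therefore not taken as pairs in the main fit, and a shared effect of the replicate number remains possible. With the replicate block, *tyms-1* in *lin-54* compared with wild type was called (q = 0.0416), which made 3 genes, and no other call of the 4 genes changed.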
